A study of Oryza sativa Indica Group with 9 samples.

Results

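The miR172 family was described in the leaf of three-leaf rice seedlings (Oryza sativa Indica Group), together with the transcript sites that the authors assigned to it. Its members were chosen by name, as every distinct mature sequence named miR172, which gave 3 of 483 listed sequences. The sites were all listed miRNA and transcript pairs of these sequences, 22 of 1364, which fell on 7 of 478 target loci. A site is in the authors' table because degradome reads ended there, so the presence of reads at a site is not a result. The family was also taken up with its change after 24 h of heat already known.

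Seedlings of HT54, a heat-tolerant breeding line, grew at 25 °C and then stood at 45 °C for 12 h or 24 h, with unheated seedlings as the 0 h group. Line, stage and tissue were the same in every group. Small RNA was sequenced in 2 libraries per time point, replicates 1 and 3 in the labels, from samples described as independent. At each time point 1 further library, which the submitters judged unsuitable without a stated ground, was not analysed here. The degradome, a survey of the ends that cleavage leaves on polyadenylated transcripts, had 1 library per time point. Unheated seedlings were sampled at 0 h only, so heat cannot be told apart from the hours that passed. The leaf label was not checked against marker transcripts here.

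miR172 guides the silencing of AP2-like transcription factor transcripts, by cleavage and by blocking their translation. In plants it stands in the age pathway, in which miR156 restrains SPL transcription factors in young shoots and miR172 follows as the shoot matures. AP2-like factors such as TOE1 of Arabidopsis delay flowering and the change to the adult phase, and in grasses they also shape the spikelet.

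The mature sequences are shown first because the 2 strands of the family pair with different transcripts. Capitals mark the seed, bases 2 to 8 from the 5′ end.
osa-miR172a: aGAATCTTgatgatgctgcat
osa-miR172b: gGAATCTTgatgatgctgcat
osa-miR172d-5p_R+1: gCAGCACCatcaagattcaca
All 3 are 21 nt long. osa-miR172a and osa-miR172b, both of the 3′ arm, have the same seed and differ by the substitution A1G (osa-miR172a base first, counted from the 5′ end). osa-miR172d-5p_R+1 comes from the 5′ arm, the passenger strand, has a seed of its own, and carries 1 base (A) more at its 3′ end than the database entry osa-miR172d-5p.

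The hairpins show which strands share a precursor. Capitals mark the listed mature sequences.
osa-MIR172d: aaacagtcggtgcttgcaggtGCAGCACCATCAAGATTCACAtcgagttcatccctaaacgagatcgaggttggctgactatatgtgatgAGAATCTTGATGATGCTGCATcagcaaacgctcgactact
osa-MIR172a: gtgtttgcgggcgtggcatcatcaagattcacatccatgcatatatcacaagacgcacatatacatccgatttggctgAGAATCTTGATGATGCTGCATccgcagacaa
osa-MIR172b: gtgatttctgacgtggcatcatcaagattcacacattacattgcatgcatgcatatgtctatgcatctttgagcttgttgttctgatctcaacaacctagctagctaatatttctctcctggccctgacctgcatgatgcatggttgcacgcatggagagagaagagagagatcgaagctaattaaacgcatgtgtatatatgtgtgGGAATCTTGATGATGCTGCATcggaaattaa
The mature sequence osa-miR172a stands in 2 hairpins, so its reads cannot be assigned to one of them. In the authors' coordinates, for which no genome build is named, osa-MIR172d spanned bases 35143537 to 35143666 of chromosome 2 (minus strand). The hairpin osa-MIR172a spanned bases 22881834 to 22881942 of chromosome 9 (plus strand). The hairpin osa-MIR172b, at 238 nt the longest, spanned bases 42923736 to 42923973 of chromosome 1 (minus strand). The deposited folding energies were -56.7 kcal/mol for osa-MIR172d, -48.9 for osa-MIR172a and -95.2 for osa-MIR172b.

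The reads of all listed miRNAs summed to 33623 and 102513 before heat, 147038 and 10314 after 12 h, and 119293 and 227965 after 24 h, in the order replicate 1, replicate 3 that is kept throughout. miR172 is read against these sums, which are not library totals. Levels below are in CPM, reads per 1000000 listed reads after TMM scaling. In the shallowest library, 12 h replicate 3, 3 reads correspond to 195 CPM, against 16.1 CPM in the deepest, 24 h replicate 3. The degradome libraries held 12554074, 11033581 and 12960708 raw reads at 0, 12 and 24 h.

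osa-miR172a, the sequence that carries most of the family, rose between 0 and 24 h of heat. Its raw reads numbered 28.5 and 65.3 before heat, 729 and 19.8 after 12 h, and 350 and 946 after 24 h. Its CPM was 730 and 621 before heat, 4926 and 1297 after 12 h, and 4212 and 5069 after 24 h. Both 24 h libraries and both 12 h libraries lay above both 0 h libraries, and the 12 h libraries spanned a wide range that overlapped the 24 h values. Levels in bulk leaf do not tell more miR172 per cell apart from more cells that hold it.

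The log2 change of osa-miR172a from 0 to 24 h was 2.78 ± 0.76 (SE, n = 2 per group; adjusted p = 0.00755 over all tested sequences, edgeR's quasi-likelihood test), a 6.89-fold difference. The means were 675 ± 77.6 CPM at 0 h and 4641 ± 605 CPM at 24 h (SD, n = 2). Of the 459 tested sequences, 2.61% rose in this comparison and 6.97% fell with an adjusted p under 0.05, and osa-miR172a ranked 10th by log2 change. Shares of sequences or families that rose or fell are counted at this threshold below. The change no longer passed when 0 h replicate 1 was left out (2.90, adjusted p = 0.187, edgeR) or when 0 h replicate 3 was (2.60, adjusted p = 0.285). It did not pass either with limma on the deposited normalized values (2.82, adjusted p = 0.130). In the authors' deposited table the p of osa-miR172a over the 3 time points, by an analysis of variance, was 0.154.

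At 12 h the level of osa-miR172a was 3111 ± 2566 CPM (SD, n = 2), with a log2 change of 2.24 ± 0.75 against 0 h, which did not pass (adjusted p = 0.0818, edgeR's quasi-likelihood test). In this comparison 0.436% of the tested sequences rose and 2.83% fell. Both 12 h libraries were higher than both 0 h libraries, but the shallow 12 h replicate 3 rested on 19.8 raw reads. Without that library the change was 2.87 and passed (adjusted p = 0.0264), without 12 h replicate 1 it was 1.16 (adjusted p = 0.629), and with DESeq2 it passed narrowly (2.25, adjusted p = 0.0489). From 12 to 24 h the log2 change was 0.55 ± 0.71 (adjusted p = 0.954, edgeR), and -0.09 without 12 h replicate 3, so no order between the 12 h and 24 h levels could be given. Between these times 0.218% of the sequences rose and 0.0% fell in edgeR, and 36 of 459 had an unadjusted p under 0.05.

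**Figure D1:**
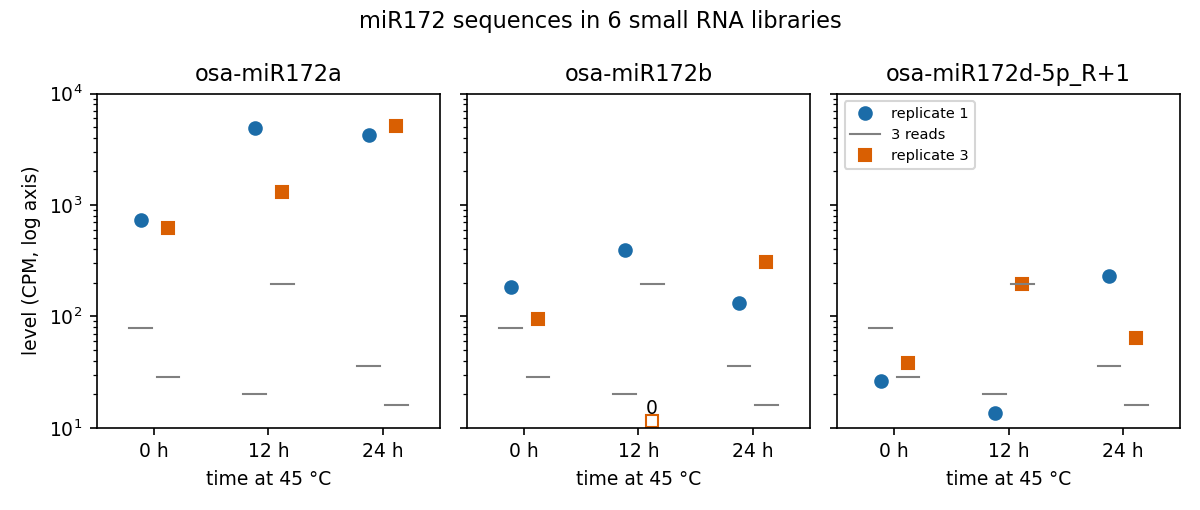
Level of each miR172 sequence (CPM after TMM scaling, log axis) against hours at 45 °C, 1 point per library (circle, replicate 1; square, replicate 3). Grey ticks mark the level of 3 reads in each library and an open square a rounded count of 0; osa-miR172a stands far above the ticks in all 6 libraries, whereas the other sequences lie near or below them in several.

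osa-miR172b, which has the same seed as osa-miR172a, did not pass the test in any of the 3 comparisons. Its CPM was 183 and 95.5 before heat, 392 and 0 after 12 h, and 132 and 305 after 24 h, and the 3 time points overlapped. The 0 stands for 0.333 divided reads in the shallow 12 h replicate 3, where 3 reads would give 195 CPM. The log2 change was 0.77 ± 0.83 from 0 to 24 h (adjusted p = 0.626, edgeR) and 0.97 ± 0.85 from 0 to 12 h (adjusted p = 0.651). Whether the change of osa-miR172b differs from that of osa-miR172a was not tested.

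The passenger strand osa-miR172d-5p_R+1 had 1 and 4 reads before heat, 2 and 3 after 12 h, and 19 and 12 after 24 h. Its CPM at 12 h was 13.5 and 195, below both 0 h libraries in the first and above them in the second. Both 24 h libraries held more CPM (229 and 64.3) than both 0 h libraries (26.1 and 38.2), which were close to the level of 3 reads (78.2 and 28.6 CPM). Only the 24 h libraries reached 10 reads, so this strand met the filter for testing (at least 10 reads in at least 2 libraries) through them alone. This selects for a higher level at 24 h, so the direction of its 24 h changes is not read as a result. The log2 change from 0 to 24 h, 1.98 ± 0.98, did not pass (adjusted p = 0.204, edgeR), and that from 0 to 12 h was 0.37 ± 1.30 (adjusted p = 0.947).

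osa-miR172a made up most of the miR172 reads in every library. Its share was 77.8% and 82.3% at 0 h (exact 95% intervals 60.8 to 89.9% and 72.1 to 90.0%, counting error only), 92.4% and 87.0% after 12 h, and 92.1% and 93.2% after 24 h (88.9 to 94.6% and 91.5 to 94.7%). osa-miR172b made up 19.4% and 12.7% at 0 h (8.19 to 36.0% and 6.24 to 22.0%) and 2.89% and 5.62% at 24 h (1.45 to 5.12% and 4.28 to 7.21%). The 0 h shares of osa-miR172b were higher in both libraries than the 24 h shares, and the intervals of 0 h replicate 1 and both 24 h libraries did not overlap, whereas those of 0 h replicate 3 and 24 h replicate 3 did. At 12 h osa-miR172b made up 7.35% (5.63 to 9.40%) and 0 of 23 reads (up to 14.8%). At 0 h these shares rest on 36 and 79 miR172 reads.

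**Figure D2:**
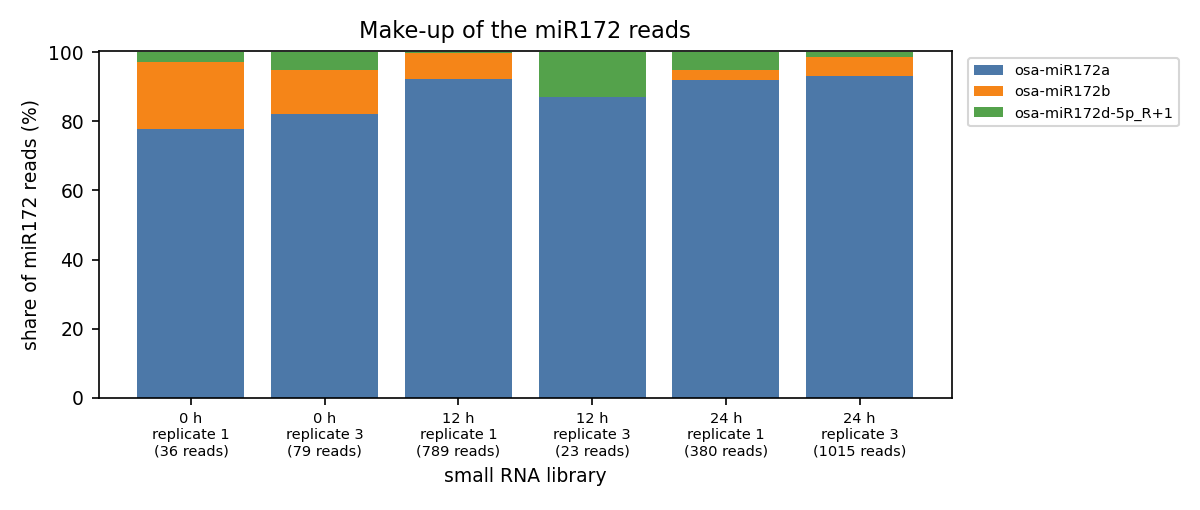
Share of the miR172 reads (percent, rounded reads) held by each of the 3 sequences in each small RNA library, with the number of miR172 reads under each bar. osa-miR172a holds 77.8 to 93.2% in the 6 libraries, and the share of osa-miR172b is 19.4% and 12.7% at 0 h against 2.89% and 5.62% at 24 h.

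Summed over its sequences, the miR172 family rose by 24 h. Its level was 1005 and 740 CPM before heat, 4369 and 1869 after 12 h, and 4313 and 5799 after 24 h, and the 0 h libraries lay below all others. Family CPM has its own TMM scaling, over the reads of sequences with a family number only. It is therefore not on the scale of the CPM of single sequences and can lie below that of osa-miR172a. The log2 change was 2.54 ± 0.81 from 0 to 24 h (adjusted p = 0.0414 over 124 families, edgeR's quasi-likelihood test). At an adjusted p under 0.05, 4.03% of the families rose in this comparison and 10.5% fell. The family's log2 change was 1.87 ± 0.80 from 0 to 12 h (adjusted p = 0.300), where 0.806% rose and 2.42% fell at the same threshold. From 12 to 24 h it was 0.67 ± 0.76 (adjusted p = 0.764), where 1.61% rose and 0.0% fell. By log2 change the family ranked 4th of 124 at 24 h and 2nd at 12 h against 0 h. The family's 24 h change did not pass with 0 h replicate 1 left out (2.74, adjusted p = 0.327), 0 h replicate 3 (2.44, adjusted p = 0.252) or 24 h replicate 3 (2.32, adjusted p = 0.132), with replicate number as a block (2.59, adjusted p = 0.0677) or with limma (2.61, adjusted p = 0.0727), while the 12 h change passed without 12 h replicate 3 (2.48, adjusted p = 0.0323).

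**Figure D3:**
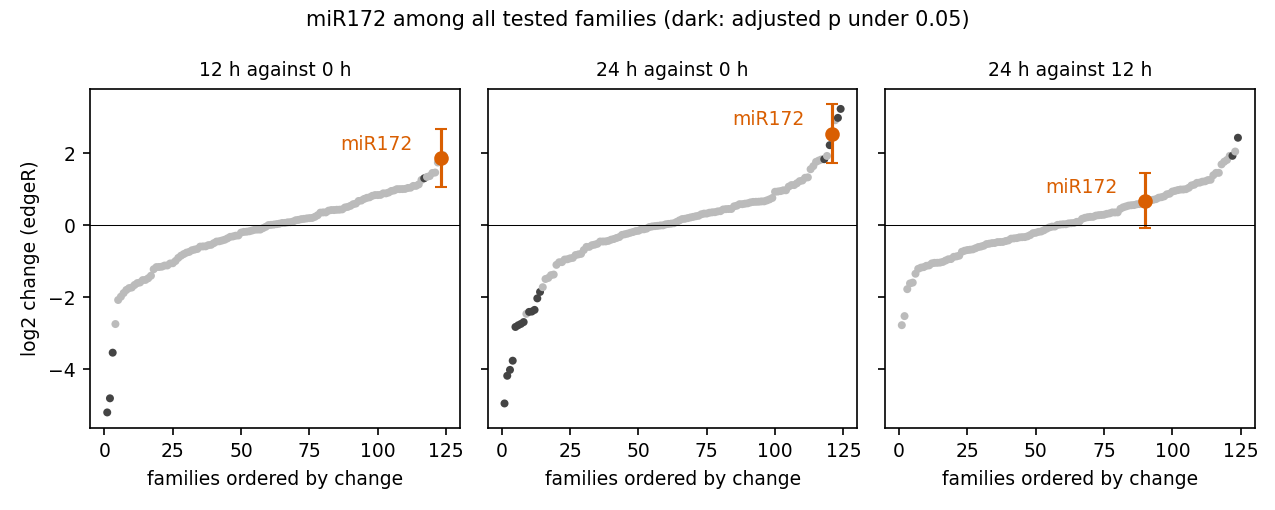
Log2 change of all 124 tested miRNA families (edgeR), ordered from lowest to highest in each comparison; dark points have an adjusted p under 0.05 and the orange point is miR172 with its SE. miR172 lies at 1.87, 2.54 and 0.67 in the 3 panels and passed at 24 h against 0 h.

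The other miRNAs of the age pathway were set beside miR172. Of 27 listed sequences of miR156, miR529 and miR535, which target SPL transcripts, 25 were tested. At 24 h against 0 h 1 of these rose and 0 fell at an adjusted p under 0.05, against 2.61% and 6.97% of all sequences. Their median log2 change was 0.05 at 24 h and -0.27 at 12 h, beside 0.00 and -0.03 for all tested sequences. The most abundant miR156 sequence, osa-miR156a_L+1, had 29418 and 37709 CPM at 0 h and 62646 and 55438 CPM at 24 h (0.81 ± 0.76, adjusted p = 0.576, edgeR). The sequence that rose was osa-MIR529a-p5 (3.41 ± 0.79, adjusted p = 0.000783), whose 24 h libraries were at 10567 and 482 CPM against 522 and 516 CPM at 0 h. Without 24 h replicate 1 its log2 change was -0.13 (adjusted p = 0.980), and with DESeq2 it did not pass (3.43, adjusted p = 0.153). osa-miR535-5p, the most abundant miR535 sequence, had -0.07 ± 0.71 (adjusted p = 0.982). By family the median log2 change at 24 h was -0.03 for the 20 tested miR156 sequences, 2.65 for the 2 of miR529 and 1.44 for the 3 of miR535, which ran from -0.07 to 1.67.

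The 3 sequences outside the family whose log2 CPM followed osa-miR172a most closely over the 6 libraries were osa-MIR171i-p3 (Pearson r = 0.960), osa-MIR396f-p3 (0.950) and osa-miR167d-3p (0.935), of 456 compared. This is a description over libraries that also differ in depth. Within the family, osa-miR172b had r = 0.480 with osa-miR172a and the passenger strand 0.151.

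The 3′ strands were assigned to 3 AP2-like loci and 1 other locus. LOC_Os05g03040 and LOC_Os07g13170 carry the annotation related to AP2.7, with the Arabidopsis symbols RAP2.7 and TOE1. LOC_Os04g55560 is annotated as an integrase-type DNA-binding protein with the symbols AP2, FL1 and FLO2, after the Arabidopsis floral homeotic factor AP2. LOC_Os09g21770 is annotated as a protein with a PHD finger and a bromo-adjacent homology domain, symbol EBS, after an Arabidopsis chromatin reader that represses flowering. Of 5 rice AP2-like loci looked up by locus number as known miR172 targets, these 3 were in the table.

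Pairing differed between the 2 guide sequences. The deposited alignment score, a penalty in which a lower value means closer pairing, was 2 for osa-miR172a and 2.5 for osa-miR172b at LOC_Os05g03040 and LOC_Os07g13170. At LOC_Os04g55560 the order was the other way round, with 4 for osa-miR172a and 3 for osa-miR172b, and at LOC_Os09g21770 the scores were 3 and 3.5. In all 8 listed transcripts of the AP2-like loci the site was 21 bases long and the cleavage position was base 10 counted from its 3′ end, which faces the 5′ end of the miRNA. In LOC_Os05g03040.1, for example, the site ran from base 1976 to 1996 and the cleavage position was 1987. The site in LOC_Os09g21770 was 20 bases long with the cleavage position at base 9. The same reads were listed for osa-miR172a and osa-miR172b, so cleavage cannot be credited to one of them. Within each locus the raw reads equalled the sum of the divided reads over its transcripts, so none of them was shared with another locus.

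LOC_Os05g03040 held most of the cleavage reads of the AP2-like loci and more of them after 24 h. Its site had 35 reads before heat, 37 after 12 h and 76 after 24 h, which is 2.79, 3.35 and 5.86 RPM, reads per 1000000 raw reads of the library. The exact 95% Poisson intervals, which cover counting error only, were 1.94 to 3.88, 2.36 to 4.62 and 4.62 to 7.34. The 24 h value was 2.10 times that of 0 h (exact 95% interval 1.39 to 3.24) and 1.75 times that of 12 h (1.17 to 2.67), and with 1 library per time point there is no replicate check. The deposited category went from 2 at 0 h and 12 h to 0 at 24 h. In such tables category 0 is used for a site with the highest signal of its transcript, category 1 for one that ties for it, category 2 for one that is above the middle of the transcript's signal, and category 4 for a single read.

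LOC_Os07g13170 had reads at its site in the heated libraries, 2 at 12 h and 12 at 24 h. It is listed only through these reads, so the direction of its changes against 0 h was fixed beforehand and is not read as a result. At 0 h it had 0 reads, which allows up to 3 reads or 0.239 RPM. At 24 h the site had 0.926 RPM (0.478 to 1.62), at least 3.87-fold higher than at 0 h against 3 counts in that library, with the 24 h reads taken as counted. The exact 95% interval at 0 h runs to 0.294 RPM, so this fold holds for the floor of 3 counts only. Against 12 h the ratio was 5.11 with an exact 95% interval of 1.14 to 47.0. Its category was 1 at 12 h and 0 at 24 h.

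LOC_Os04g55560 had 9, 5 and 12 reads at 0, 12 and 24 h, or 0.717, 0.453 and 0.926 RPM. These did not differ beyond counting error. The ratios were 1.29 for 24 h against 0 h (0.499 to 3.47), 0.632 for 12 h against 0 h (0.166 to 2.10) and 2.04 for 24 h against 12 h (0.670 to 7.40). Its site was of category 0 at 0 h and 24 h, and at 12 h of category 1 in 2 of its 3 transcripts and 2 in the other. LOC_Os09g21770 had 5, 3 and 3 reads and category 2 throughout, with a ratio of 0.581 for 24 h against 0 h (0.0903 to 2.99).

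The planned sum, over all 7 miR172 loci, was 81, 67 and 113 reads at 0, 12 and 24 h. Per raw read its 24 h value was 1.35 times that of 0 h (exact 95% interval 1.007 to 1.82). Its 12 h value was 0.941 times that of 0 h (0.671 to 1.32). The sum over the AP2-like loci alone was chosen after the data were seen. Together the 3 AP2-like loci had 44 reads before heat, 44 after 12 h and 100 after 24 h, or 3.50, 3.99 and 7.72 RPM. The 24 h value was 2.20 times that of 0 h (1.53 to 3.21) and the 12 h value 1.14 times (0.732 to 1.77). The pooled ratio rests in part on LOC_Os07g13170, which is listed only through its reads in the heated libraries. That locus gave 0 of the 44 AP2-like reads at 0 h and 12 of the 100 at 24 h. LOC_Os05g03040 held 79.5%, 84.1% and 76.0% of these reads at 0, 12 and 24 h, and LOC_Os07g13170 held 12.0% at 24 h (exact 95% interval 6.36 to 20.0%). Side by side, osa-miR172a was higher in both 12 h libraries than in both 0 h libraries. Per raw read the AP2-like cleavage reads were level from 0 to 12 h (log2 ratio 0.19). The median log2 ratio was -0.93 for listed sites with at least 10 reads over the 2 libraries and reads in both. At 24 h osa-miR172a and the AP2-like cleavage reads both stood above 0 h. More cleavage reads and more of the target transcript cannot be told apart in these data.

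**Figure D4:**
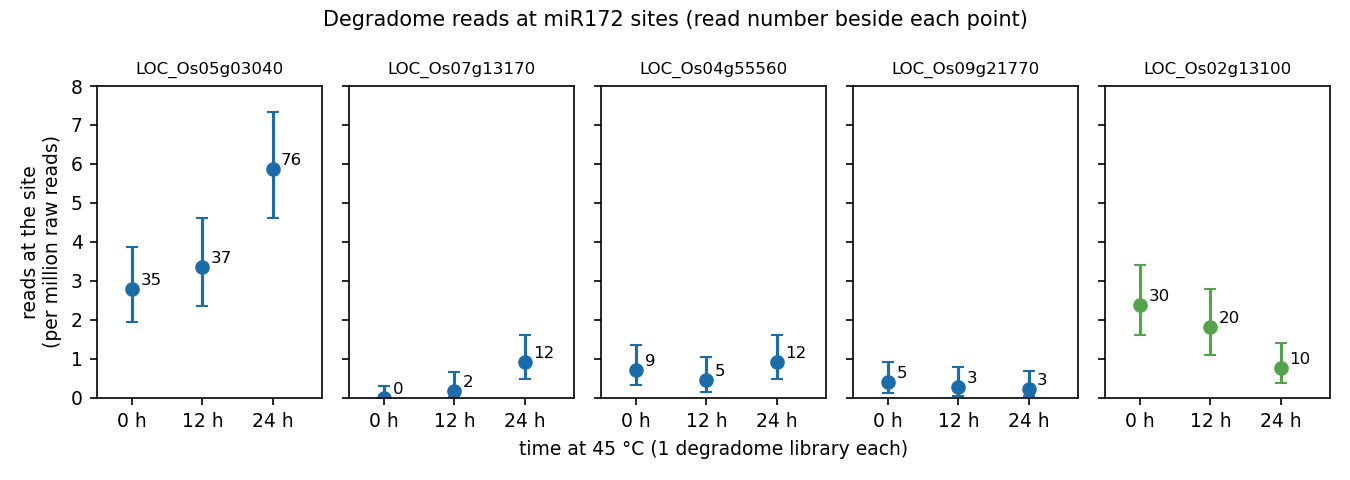
Degradome reads at 5 miR172 sites against hours at 45 °C, in RPM with exact 95% Poisson intervals and the read number beside each point (blue, sites of the 3′ strands; green, the site of the 5′ strand). LOC_Os05g03040 goes from 35 to 76 reads, LOC_Os07g13170 from 0 to 12, and LOC_Os02g13100 from 30 to 10.

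The passenger strand was assigned to 3 loci that have no annotation in the table, each with a 20-base site and a score of 3.5. LOC_Os02g13100 had 30, 20 and 10 reads at 0, 12 and 24 h, or 2.39, 1.81 and 0.772 RPM, and stayed in category 2. Its 24 h value was 0.323 times that of 0 h (exact 95% interval 0.141 to 0.679), the opposite direction to LOC_Os05g03040. LOC_Os04g35920 and LOC_Os02g37150 had 1 read each at 0 h and 0 later, all in category 4.

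Among all distinct listed sites with at least 10 reads summed over the 2 libraries compared, 19.3% were at least 2-fold higher at 24 h than at 0 h and 38.6% at least 2-fold lower, of 57. Of the 4 miR172 sites with enough reads, LOC_Os05g03040 (35 and 76 reads) was past 2-fold up and LOC_Os02g13100 (30 and 10 reads) past 2-fold down. LOC_Os07g13170 met the minimum through its 24 h reads alone, which fixes its direction. It is not read against these shares, although the share of higher sites counts it. At 12 h against 0 h, 6.78% of 59 sites were past 2-fold up and 52.5% past 2-fold down, and of the 3 miR172 sites with enough reads 0 were past it in either direction. At 24 h against 12 h the shares were 31.2% and 18.8% of 48 sites, with LOC_Os02g13100 (20 and 10 reads) past 2-fold down. LOC_Os04g55560 (5 and 12 reads) was past 2-fold up by its ratio of 2.04, but not beyond counting error (exact interval 0.670 to 7.40). LOC_Os04g55560 and LOC_Os07g13170 each met the minimum through the 24 h reads alone. Neither is read against these shares, although the share of higher sites counts them. The median log2 ratio of all such sites with reads in both libraries was -0.61 at 24 h and -0.93 at 12 h against 0 h, beside 1.07 and 0.27 for LOC_Os05g03040 and 0.37 and -0.66 for LOC_Os04g55560.

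The authors' deposited table gives a chi-square p over the 3 libraries for each site. It was 0.000253 for LOC_Os04g55560 with 9, 5 and 12 reads, and 5.13e-14 for LOC_Os02g37150 with 1, 0 and 0 reads. Because a site of 1 read has so small a p there, these values were not used to call any site.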

How the data were processed

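Small RNA of 15-30 nt and degradome libraries were sequenced on an Illumina Genome Analyzer II, per the labels' protocols. No source used here names the read mapper, miRNA database release, target finder or genome build. The authors deposited raw reads per mature sequence as estimated counts, divided where a read matches several positions (66.9 to 75.2% of values were whole, tolerance 1e-06), and a normalized signal that is the raw value times a constant. For each site the authors deposited a read count, reads divided among transcripts (estimated counts), a signal per raw library read, and category and alignment scores, per the file headers.

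The 588 entries were reduced to 483 distinct sequences and summed into 132 families by number. Sequences and families with at least 10 rounded reads in at least 2 libraries were tested (459 and 124). edgeR's quasi-likelihood test was used (edgeR 4.0.16, R 4.3.3, TMM scaling, 2-sided, time as the only factor, 6 libraries in 1 fit, Benjamini-Hochberg adjustment, threshold 0.05). The fit was planned for whole counts, so values were rounded. SE was taken as log2 change over the root of the F statistic. The common dispersion was 0.219 and edgeR set the prior degrees of freedom to infinity for sequences (18.0 for families), so SE and p of a sequence rest on a spread shared by all sequences. Of the scripts, only the edgeR test of sequences, 24 h against 0 h, was run on simulated counts. DESeq2 1.42.0 and limma 3.58.1 (log2 of the deposited value plus 1) were alternatives.

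Degradome sites had no test. Each locus was counted once, with exact intervals (scipy 1.17.1). Background sites were distinct combinations of locus and read numbers. Intervals and the floor of 3 counts cover counting error only, because PCR copies are not independent molecules. Named items were every miR172 sequence and site, the 3 sequences most like osa-miR172a, and of miR156, miR529 and miR535 the most abundant sequence and any that passed. Members and lists were chosen with earlier results of these data known.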

Additional observations from a re-analysis of the deposited data

How the results depend on the processing

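The deposited read sums of the small RNA libraries and 1 degradome library per time point set the limits here, and leaving out 1 small RNA library leaves a lone sample that is assumed to vary like the others. The number of miR172 sequences past the threshold was 1 with DESeq2 at 12 h (0 in edgeR) and 0 with limma at 24 h (1 in edgeR), and between 0 and 1 at both times with 1 library left out. The family's change at 24 h was 2.59 with replicate number as a block (adjusted p = 0.0677, edgeR) and 2.61 with limma (adjusted p = 0.0727), so neither passed, and it ran from 2.32 to 2.87 with 1 library left out. The labels do not say that the numbers pair samples, and same-numbered libraries deviated from their group means with r from -0.222 to 0.153. No pairing was seen, but with 2 libraries per time point and a shallow 12 h replicate 3 these values cannot show that there was none. The block took the sequences called at 24 h from 44 to 29. Without 1 library the family's change at 12 h ran from 1.07 to 2.48, and from 12 to 24 h from -0.0514 to 1.59, and that of osa-miR172a from 12 to 24 h from -0.0855 to 1.76. For osa-miR172b the change from 12 to 24 h turned with DESeq2 (0.00429), with the replicate block (0.0707) and with limma (1.08), and ran from -1.02 to 7.34 with 1 library left out. Its 12 h change was -0.42 with limma and ran from -6.42 to 1.57. Both 7.34 and -6.42 came without 12 h replicate 1, where the only 12 h library left had a rounded count of 0. For osa-miR172d-5p_R+1 the change from 12 to 24 h ran from -0.57 to 3.25 and that from 0 to 12 h from -1.27 to 2.72. For osa-MIR529a-p5 the change ran from -0.13 to 4.50 at 24 h. Without the site with the most reads, all miR172 cleavage reads gave a ratio of 0.779 for 24 h against 0 h (1.35 with it) and 1.05 against 12 h (1.44 with it), and the AP2-like loci gave 2.92 against 12 h (1.93 with it). The ratio of AP2-like reads for 24 h against 0 h was 2.12 per transcript-mapped read and 2.58 without the site with the most reads (2.20 per raw read). LOC_Os07g13170, with 0 reads at 0 h and 12 at 24 h, is in each of these sums. The AP2-like sum itself and both alternatives were chosen after the data were seen. The cause of the shifts between settings was not tested.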
